A study of Mus musculus with 37 samples.

Results

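AP-1 is a transcription factor made of pairs of basic leucine zipper proteins, and 9 of its family members were examined among the 60708 gene IDs of a count table from 37 mouse splenocyte libraries. The members were chosen by family name and not by their values, although earlier results of these data were known. They were the Fos proteins FOS (ENSG00000170345.10), FOSB (ENSG00000125740.14), FOSL1 (ENSG00000175592.9) and FOSL2 (ENSG00000075426.12), the Jun proteins JUN (ENSG00000177606.8), JUNB (ENSG00000171223.6) and JUND (ENSG00000130522.6), and the related factors ATF3 (ENSG00000162772.17) and BATF (ENSG00000156127.8). Fos proteins bind DNA only in a pair with another zipper protein, usually a Jun protein, whereas Jun proteins can also pair with each other. Several of these genes are immediate-early genes, whose transcripts rise within minutes of a stimulus and decay quickly, and in lymphocytes and macrophages AP-1 acts with other factors on cytokine and activation genes.

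Splenocytes from wild-type FVB mice were kept for 48 h with RAW264.7 cells, a single mouse macrophage-like line, or with the medium of those cells. For 72 h beforehand the RAW264.7 cells had grown either at 21% oxygen (normoxia) or at 1% (hypoxia), each with SPP1 supplied or not. SPP1 is osteopontin, a ligand of integrins and CD44 that cells release. The splenocytes received the medium alone (medium, 11 libraries), the cells unwashed (cells, 12 libraries) or the cells after a media wash (washed, 12 libraries). Another 2 libraries were labelled naive, with no culture time given. In differences from naive, the exposure and the 48 h of culture itself therefore cannot be told apart. Of the 13 groups, 11 had 3 libraries, while naive and the medium normoxia no-SPP1 group had 2 each. The age of the mice and the number behind each group were not given in the sources used here, so p-values measure only the spread between libraries. Brefeldin A, which blocks protein secretion, was added to the cultures before collection. Splenocytes are a mixture of cell types and RAW264.7 cells may have been collected with them, so fewer cells of a type and less RNA per cell cannot be told apart.

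Mouse reads had been aligned to the human genome GRCh38 and counted on human Ensembl IDs. A value below is thus a tally of mouse reads assigned to the human counterpart or to a relative of it, and levels are compared between libraries but never between genes. Library totals were 631574 to 1337314 counts (median 1063211), and 3 counts equalled 2.01 to 4.97 CPM (counts relative to the scaled library size). On the first principal component of all tested IDs 2 medium libraries lay apart from the other 9 (replicate 3 of medium normoxia no-SPP1 and replicate 1 of medium hypoxia no-SPP1). They lay towards the cells and washed libraries, at -10.7 and -11.6 against at most -41.5 for the other 9. Leaving them out can therefore widen differences from medium by the choice itself. The second component separated 4 more (cells hypoxia no-SPP1 replicate 2, replicates 1 and 2 of washed normoxia SPP1, and replicate 1 of washed hypoxia SPP1). Because these 6 libraries touch several results, values are also given without them. The labelled cell type could not be checked against its markers, since no table used here pairs these IDs with gene names.

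The members took 0.0102% to 0.0638% of a library's counts. FOS, JUN and JUND averaged 18.5, 112 and 69.5 counts per library. The other 6 averaged under 10 counts and were poorly captured. JUNB (9.32 counts) and ATF3 (5.11) still passed the filter on low counts, whereas FOSL1 (2.11), BATF (1.03), FOSB (0.838) and FOSL2 (0.351) did not.

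To show the regions from which members named in the results are transcribed, the stretches from 250 bases before to 50 bases after the transcription start of mouse Fos, Jun and Junb are given below (RefSeq, GRCm38.p6). They lie at chr12:85473640-85473939 (plus strand), chr4:95052173-95052472 (minus strand) and chr8:84978699-84978998 (minus strand). Capitals mark matches on either strand to TGANTCA, the core AP-1 element, to TGACNTCA, its 8-base variant, or to TGACG, the core of the cyclic AMP response element, which also falls inside some matches to TGACNTCA.
Fos: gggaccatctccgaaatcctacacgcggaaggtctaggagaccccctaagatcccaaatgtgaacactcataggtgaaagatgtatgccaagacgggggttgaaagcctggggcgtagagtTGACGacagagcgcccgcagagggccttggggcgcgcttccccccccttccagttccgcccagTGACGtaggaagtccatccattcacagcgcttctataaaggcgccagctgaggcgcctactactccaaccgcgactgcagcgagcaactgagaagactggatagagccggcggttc
Jun: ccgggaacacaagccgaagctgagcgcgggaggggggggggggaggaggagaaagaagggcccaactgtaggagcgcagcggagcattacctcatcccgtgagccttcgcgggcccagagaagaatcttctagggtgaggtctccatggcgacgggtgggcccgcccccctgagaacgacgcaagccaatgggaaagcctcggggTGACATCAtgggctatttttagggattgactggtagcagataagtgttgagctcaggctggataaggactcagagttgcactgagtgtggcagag
Junb: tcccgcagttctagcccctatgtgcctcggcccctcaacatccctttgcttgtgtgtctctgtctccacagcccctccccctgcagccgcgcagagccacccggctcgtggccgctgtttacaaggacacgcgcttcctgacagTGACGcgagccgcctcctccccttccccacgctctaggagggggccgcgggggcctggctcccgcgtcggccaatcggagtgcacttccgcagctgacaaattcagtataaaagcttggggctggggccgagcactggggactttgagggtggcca
Such a stretch was found for 8 of the 9 members, all but Fosl1. None of the 8 held TGANTCA, which 7.81% of 32851 promoters of this length hold. Jun alone held TGACNTCA (8.83% of all promoters), from 45 to 38 bases before its start. TGACG occurred in 5 of the 8 (20.8% of all promoters), with 2 matches in Fos and 1 each in Fosb, Junb, Atf3 and Batf. These matches describe letters and were not tested as binding sites.

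Across 18 comparisons of mode, oxygen and SPP1, the 5 tested members gave 90 tests by edgeR's quasi-likelihood test, of which 6 had an adjusted p under 0.05 (Benjamini-Hochberg over 5193 IDs) and are called changed below. That share of 6.67% lay below that over all 5193 IDs in the same comparisons, 11242 of 93474 tests (12%). JUN accounted for 3 of the calls, and FOS, JUNB and JUND for 1 each. The comparisons that share naive or medium libraries are not independent of each other.

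**Figure D1:**
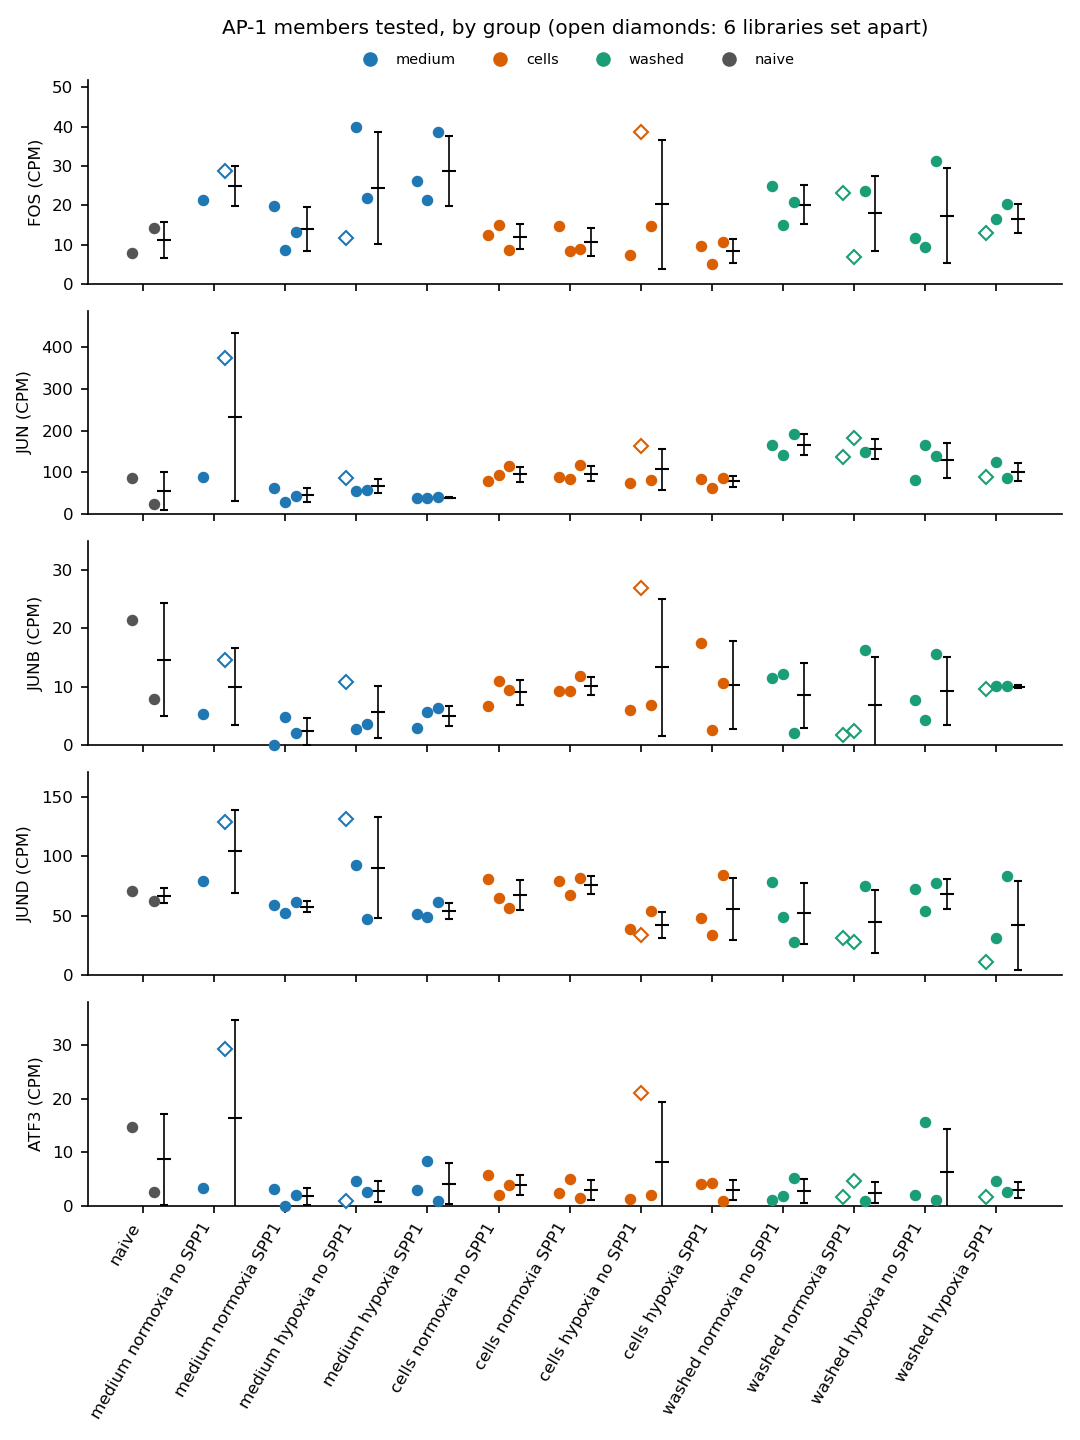
CPM (vertical axes, linear, from 0) of FOS, JUN, JUNB, JUND and ATF3 in each of 37 libraries, by group. Points are libraries, open diamonds are the 6 libraries set apart, and dashes with bars are the group mean and SD (bars end at 0). JUN reached 375 CPM in 1 medium library, whereas the other 10 medium libraries stayed at or below 89.6 CPM.

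Among the Fos proteins, FOS, the founding member and an immediate-early gene, was lower with unwashed cells than with medium. FOS ranged from 8.59 to 39.9 CPM in the medium libraries (median 21.4), from 4.97 to 38.6 CPM in the cells libraries (median 10.1) and from 6.94 to 31.2 CPM in the washed libraries (median 18.4). The naive libraries held 7.81 and 14.3 CPM. Medium and cells overlapped, but 11 of the 12 cells libraries lay at or below 15.0 CPM, and the highest was cells hypoxia no-SPP1 replicate 2. The means were 22.8 ± 10.1 (SD, n = 11) and 12.8 ± 8.74 CPM (SD, n = 12). FOS fell by 0.87 on the log2 scale in cells against medium (SE 0.27), with an adjusted p of 0.00832 by edgeR's quasi-likelihood test. In this comparison 25.3% of tested IDs were called lower and 23.4% higher, so a call for a single member is not uncommon. Without the 4 libraries set apart on the second component the difference was -1.08 (adjusted p = 0.000485, edgeR).

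FOS in the washed libraries lay between the other modes. Its difference from medium was -0.31 (SE 0.27, edgeR adjusted p = 0.336), with a 95% interval from -0.85 to 0.24. Its difference from unwashed cells was 0.56 (SE 0.27, edgeR adjusted p = 0.199). Leaving out cells hypoxia no-SPP1 replicate 2 brought that difference to 0.78 and past the threshold (edgeR adjusted p = 0.0487). Against naive, FOS differed by 1.02 in medium, 0.16 in cells and 0.72 in washed, none of which passed the test.

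FOSL1 (Fra-1), a Fos protein without the activation domain of FOS, was seen mainly with medium. It had 55 counts over the medium libraries, in 10 of 11, against 11 counts in 7 of 12 cells libraries, 12 counts in 8 of 12 washed libraries and 0 counts in both naive libraries. The medium libraries ranged from 0 to 8.15 CPM with a median of 4.35, and the medium library at 0 was medium hypoxia no-SPP1 replicate 1, one of those set apart. The cells libraries reached at most 3.51 CPM and the washed libraries 3.47 CPM, so the modes overlapped at the low end. Pooled over libraries, FOSL1 stood at 4.23 CPM in medium (95% Poisson interval 3.19 to 5.51), 0.812 CPM in cells (0.405 to 1.45) and 1.06 CPM in washed (0.546 to 1.85). These intervals cover counting error only.

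The pooled FOSL1 level in medium was 5.21 times that in cells (exact 95% interval 2.70 to 11.0) and 4.01 times that in washed (2.12 to 8.22). The naive libraries had 0 counts. Against an assumed floor of 3 counts over both of them (1.67 CPM), medium was 2.53-fold higher. The 95% Poisson interval of naive reached 2.06 CPM, above that floor, so 2.53 is not a lower bound. FOSL1 missed the filter, but in a fit over all 22657 IDs with a count it fell by 2.51 on the log2 scale in cells against medium (SE 0.57, edgeR adjusted p = 0.000211). In washed against medium it fell by 2.00 (SE 0.55, edgeR adjusted p = 0.00295). In that fit 5.8% and 7.75% of IDs were called lower in these comparisons, while for 41.8% and 41.7% of IDs, too sparse for the model, the test could not be computed and counted as not called. The mean CPM of each of the 4 members under the filter was also compared with medium in cells and in washed, by 8 two-sided permutation tests over libraries with 100000 resamples, whose p-values were not adjusted. For FOSL1 the permutation p was 0.00144 for cells and 0.0014 for washed. Both edgeR calls held when each library in turn was left out, with edgeR adjusted p-values up to 0.00304 and 0.0233.

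FOSB, another immediate-early Fos protein, had the opposite order, at very low counts. It had 1 count in 11 medium libraries and 0 in the naive ones, against 16 counts in 8 of 12 cells libraries and 14 counts in 8 of 12 washed libraries. No library held more than 4 counts. The pooled level in cells was 15.4 times that in medium (exact 95% interval 2.39 to 644), and in washed 16.0 times (2.44 to 677). Both ratios rest on 1 count in medium, and their intervals cover counting error only. The mean level was 1.27 CPM in cells and 1.21 CPM in washed, against 0.0868 CPM in medium. The same permutation tests gave p = 0.00326 and 0.00334. The fit over all IDs with a count also called FOSB higher in both comparisons (edgeR adjusted p = 0.00699 and 0.0144), where 4.87% and 6.42% of IDs were called higher, but its fold changes are not given because 3 of the 4 medium groups were at 0. FOSL2 (Fra-2) had only 13 counts over the 37 libraries, 1 in medium, 3 in cells, 6 in washed and 3 in naive, and a difference between modes was not detectable at this depth (permutation p = 0.796 for cells and 0.111 for washed against medium).

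**Figure D2:**
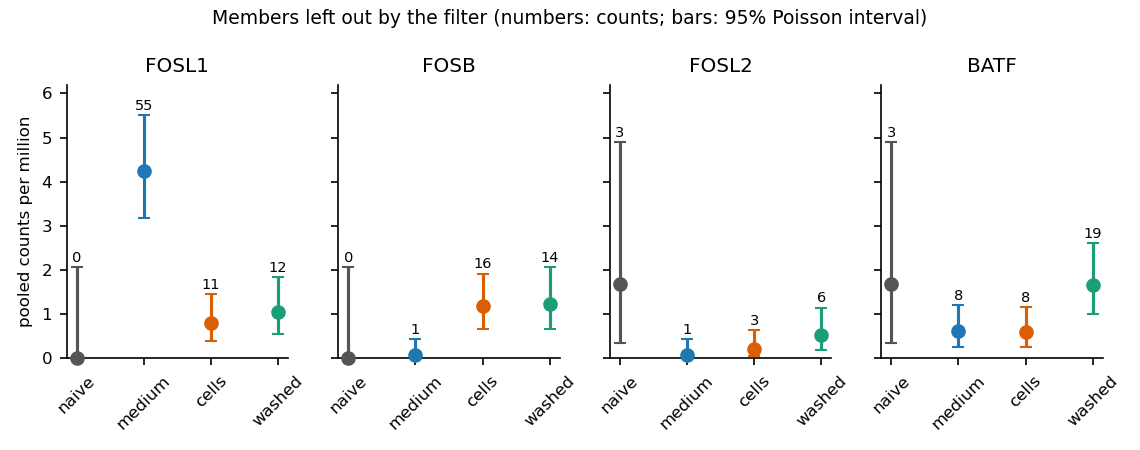
Pooled CPM (vertical axis, from 0) of the 4 members that missed the filter, by mode, with 95% Poisson intervals and total counts above them. FOSL1 stood at 4.23 CPM in medium with an interval above those of cells and washed, and FOSB had 1 count in medium against 16 and 14.

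Among the Jun proteins, JUN, the partner of Fos proteins and a target of Jun N-terminal kinases, was higher in washed than in medium or naive. JUN ranged from 82.9 to 192 CPM in the washed libraries (median 141), from 62.9 to 163 CPM in the cells libraries (median 86.1) and from 29.6 to 375 CPM in the medium libraries (median 56.2). The naive libraries held 87.8 and 23.4 CPM, a wide gap for 2 libraries. Washed averaged 138 ± 36.3 CPM (SD, n = 12), cells 94.6 ± 26.3 (SD, n = 12) and medium 83.8 ± 98.4 (SD, n = 11). The medium mean was raised by the library at 375 CPM. Without the 6 libraries set apart, medium averaged 51.1 ± 18.1 CPM (SD, n = 9), the cells mode 88.4 ± 15.9 (SD, n = 11) and washed 139 ± 35.7 (SD, n = 9). The highest of these 9 medium libraries (89.6 CPM) still overlapped the lowest washed library.

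JUN rose by 0.89 on the log2 scale in washed against medium (SE 0.21, edgeR adjusted p = 0.000338), and it was called under all 30 alternatives, with edgeR adjusted p-values up to 0.0019. In this comparison 28.6% of IDs were called higher and 30.2% lower. Against naive JUN rose by 1.26 in washed (SE 0.41, edgeR adjusted p = 0.0159), where 17.5% of IDs were called higher. That call rested on naive replicate 2. Without it the difference was 0.65 (edgeR adjusted p = 0.414), and without naive replicate 1 it was 2.53 (edgeR adjusted p = 0.00219).

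In cells against medium the JUN difference was 0.36 (SE 0.20, edgeR adjusted p = 0.14). Without medium normoxia no-SPP1 replicate 3 it was 0.73 (edgeR adjusted p = 0.00273), so this library decided the call. In washed against cells it was 0.53 (SE 0.20, edgeR adjusted p = 0.0859), with a 95% interval from 0.13 to 0.93, in a comparison where 7.24% of IDs were called. It passed without cells hypoxia no-SPP1 replicate 2 (0.64, edgeR adjusted p = 0.0262). No tested member was called in washed against cells by edgeR or DESeq2, although FOS and JUN had an unadjusted p under 0.05. Taken by oxygen, JUN differed between washed and cells by 0.74 after normoxia (SE 0.28, edgeR adjusted p = 0.135) and by 0.32 after hypoxia (SE 0.28, edgeR adjusted p = 0.68). In these comparisons 1.29% and 1.62% of IDs were called, and no member was.

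JUNB, an immediate-early Jun protein that can oppose JUN at some promoters, was higher in cells than in medium. It ranged from 0 to 14.6 CPM in medium (median 4.77), from 2.48 to 26.9 CPM in cells (median 9.32) and from 1.66 to 16.4 CPM in washed (median 9.88), and the naive libraries held 21.5 and 7.82 CPM. All modes overlapped. JUNB rose by 1.06 on the log2 scale in cells against medium (SE 0.40, edgeR adjusted p = 0.029). The call was lost in 5 of 23 fits with a library left out: cells hypoxia no-SPP1 replicate 2, cells hypoxia SPP1 replicate 1, medium normoxia SPP1 replicate 1, medium hypoxia no-SPP1 replicate 2 or medium normoxia no-SPP1 replicate 2 (edgeR adjusted p = 0.0511 to 0.101). The difference was lowest, at 0.80, without cells hypoxia no-SPP1 replicate 2, which held the highest JUNB level. It was also 0.80 without the 4 libraries of the second component. Without the 2 medium libraries set apart, which lay towards the cells libraries, it was 1.52. Against naive, JUNB in medium differed by -1.56 (SE 0.66, edgeR adjusted p = 0.0668), and without those 2 medium libraries by -2.01. It also depended on the naive libraries, at -0.63 without naive replicate 1 (edgeR adjusted p = 0.7) and -2.08 without naive replicate 2, and passed in neither case.

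JUND, the Jun protein that resting cells express most steadily, fell in washed against medium by 0.52 on the log2 scale (SE 0.23, edgeR adjusted p = 0.0493). It ranged from 11.3 to 83.6 CPM in washed (median 51.8), from 34.0 to 84.4 CPM in cells (median 60.7) and from 47.0 to 132 CPM in medium (median 61.2), with 71.3 and 62.5 CPM in naive. The highest medium libraries and the lowest washed library were among those set apart. Without the 6 libraries set apart medium averaged 61.6 ± 15.2 CPM (SD, n = 9), cells 62.7 ± 17.9 (SD, n = 11) and washed 61.2 ± 21.2 (SD, n = 9). Leaving out single libraries ended the call in 17 of 23 cases, and the difference was -0.24 without the 4 libraries of the second component (edgeR adjusted p = 0.339).

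**Figure D3:**
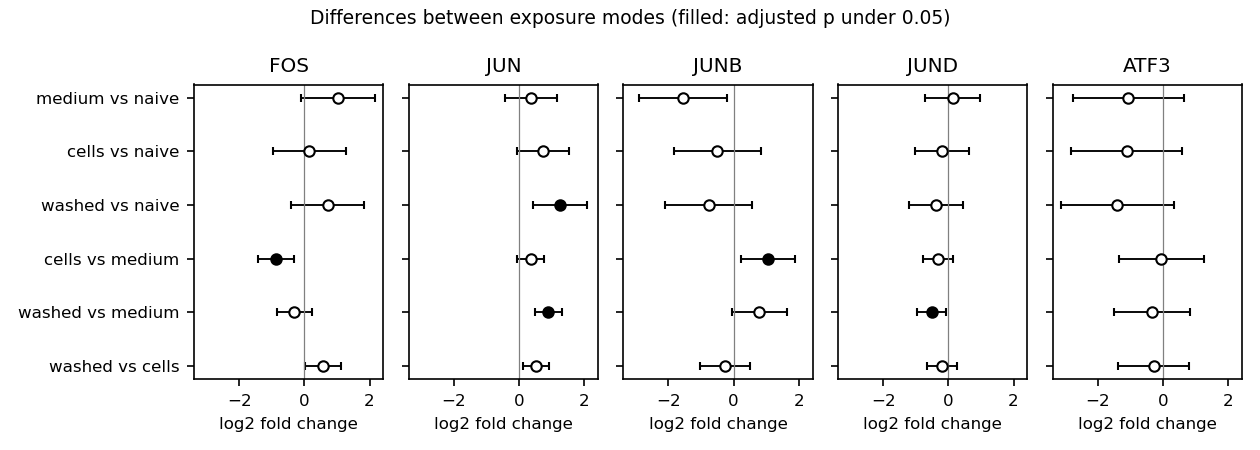
Log2 fold changes (horizontal axes) of the 5 tested members in 6 comparisons between modes, with 95% intervals, first group over second. Filled points had an adjusted p under 0.05. FOS and JUNB differed in opposite directions in cells against medium, -0.87 and 1.06, and JUN and JUND in washed against medium, 0.89 and -0.52. The JUNB call was lost in 5 of 23 fits with a library left out, and the JUND call in 17 of 23. Without the 6 libraries set apart JUND averaged 61.6 CPM in medium and 61.2 CPM in washed.

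ATF3, a stress-induced factor that can repress its targets, was at most 29.3 CPM and passed no test between modes. Its median was 2.90 CPM in medium, 3.11 in cells and 1.89 in washed, and the naive libraries held 14.6 and 2.61 CPM. Its differences between exposed modes ran from -0.33 to -0.05 on the log2 scale, with intervals from -1.50 to 1.25 in all. BATF, which pairs with Jun proteins in lymphocytes, had 8 counts in medium, 8 in cells, 19 in washed and 3 in naive. Its pooled level in washed was 2.72 times that in medium (exact 95% interval 1.14 to 7.17) and 2.83 times that in cells (1.18 to 7.48). In the fit over all IDs with a count these differences did not pass (edgeR adjusted p = 0.0834 and 0.331), and the permutation p against medium was 0.108 for washed and 0.988 for cells.

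Over the 5 tested members the median log2 fold change was -0.05 in cells against medium (all tested IDs -0.02), -0.31 in washed against medium (all IDs -0.03) and -0.19 in washed against cells (all IDs -0.01). Members of both signs made up each of these medians. Against naive no member was called in medium or cells by edgeR or DESeq2, where 32.4% and 27.3% of all tested IDs were, with JUNB in medium alone at an unadjusted p under 0.05.

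The design also asked whether SPP1 or hypoxia during the culture of RAW264.7 cells altered the members. With medium or unwashed cells, supplied SPP1 may have reached the splenocytes directly. There its own action and that of the RAW264.7 cells exposed to it cannot be told apart. In medium, JUN was lower where the RAW264.7 cells had received SPP1. The 5 libraries without SPP1 held 89.6 and 375 CPM after normoxia and 87.1, 56.2 and 58.3 CPM after hypoxia. The 6 libraries with SPP1 ranged from 29.6 to 63.4 CPM with a median of 41.0, and the sets overlapped. JUN fell by 1.55 on the log2 scale with SPP1 (SE 0.30, edgeR adjusted p = 0.0115), 1 of 13 IDs called lower (0.25%). Without the library at 375 CPM the difference was -0.88 (edgeR adjusted p = 0.772). It also missed the threshold without medium hypoxia no-SPP1 replicate 1 (-1.47, edgeR adjusted p = 0.0901) and without medium normoxia SPP1 replicate 3 (-1.53, edgeR adjusted p = 0.0687).

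The library at 375 CPM, medium normoxia no-SPP1 replicate 3, was also the highest medium library in JUNB, ATF3 and BATF, at 14.6, 29.3 and 3.49 CPM. JUND differed by -0.80 with SPP1 in medium, with an unadjusted p of 0.0181 and an adjusted p of 0.457 (edgeR). In cells and washed, JUN differed with SPP1 by -0.22 in each, with intervals from -0.78 to 0.35 and from -0.78 to 0.34. No member passed there by edgeR or DESeq2, and none had an unadjusted p under 0.05. In these comparisons 0% and 0.0193% of all tested IDs were called (edgeR), with 87 and 527 IDs at an unadjusted p under 0.05. The SPP1 effect on JUN differed between cells and medium by 1.33 (SE 0.41, unadjusted p = 0.00226), which did not pass the correction (edgeR adjusted p = 0.536). The difference was 1.72 without medium normoxia no-SPP1 replicate 2, where the library at 375 CPM alone stood for its group. It was 0.53 without the 2 medium libraries set apart. No ID was called for the difference of the SPP1 effect between cells and medium or between washed and cells (0% in each, edgeR, with 255 and 391 IDs at an unadjusted p under 0.05), and DESeq2 called no member.

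For hypoxia no member was called in any mode by edgeR or DESeq2. All tested IDs called made up 0.077% in medium, 3.62% in cells and 0.0385% in washed. JUN in medium came closest, at -0.99 (SE 0.30, unadjusted p = 0.00209, edgeR adjusted p = 0.33). Its level after hypoxia ranged from 37.7 to 87.1 CPM (n = 6), and after normoxia it was 29.6, 42.9, 63.4, 89.6 and 375 CPM. Medium normoxia no-SPP1, a group of 2, decided this result: the difference was -1.36 and passed without its replicate 2 (edgeR adjusted p = 0.0115), and was -0.29 without its replicate 3 (edgeR adjusted p = 1). In either case the remaining library of the group was assumed to vary like the other groups. Without both medium libraries set apart the difference was -0.41 (edgeR adjusted p = 0.918). FOS differed with hypoxia by 0.49 in medium, 0.21 in cells and -0.15 in washed, and each interval included 0. The hypoxia effect on a member was not called different between cells and medium, or between washed and cells, by edgeR or DESeq2 (0.481% and 0.173% of IDs were). JUN in cells minus medium was the only member there with an unadjusted p under 0.05, at 0.91 (SE 0.41).

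Ordered by group mean, JUN was highest in medium normoxia no-SPP1 (232 ± 202 CPM, SD, n = 2) and then in washed normoxia no-SPP1 (166 ± 25.2, SD, n = 3) and washed normoxia SPP1 (156 ± 24.3, SD, n = 3). It was lowest in medium hypoxia SPP1 (39.9 ± 2.25, SD, n = 3). Neighbouring groups in this order overlapped, as sorting groups of 2 or 3 libraries by their own means makes likely. The order is a description only.

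How far the members varied together is described by mode, and differences between modes were not tested. JUN counts per FOS count had a median of 3.20 in medium (1.09 to 13.1), 8.54 in cells (4.21 to 13.3) and 7.08 in washed (4.33 to 26.3). Over the 37 libraries Pearson's r of log2 CPM was 0.09 between FOS and JUN, 0.33 between JUN and JUNB and 0.39 between JUN and ATF3, the last of which was 0.14 without the 6 libraries set apart. Within the 12 cells libraries r was 0.71 between FOS and JUN, 0.72 between FOS and JUNB and 0.82 between JUN and JUNB. For the same pairs r was 0.23, 0.01 and 0.53 in the 11 medium libraries and 0.03, 0.39 and -0.37 in the 12 washed libraries. The points of these correlations share library depth, and they are descriptions only. Counting noise at low counts also lowers r, so a low r does not show that members varied separately. The library cells hypoxia no-SPP1 replicate 2 was the highest cells library in 6 of the 9 members, FOS, FOSB, FOSL1, JUN, JUNB and ATF3, and so in all 3 genes of these pairs. The correlations within the cells libraries were not computed without it.

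**Figure D4:**
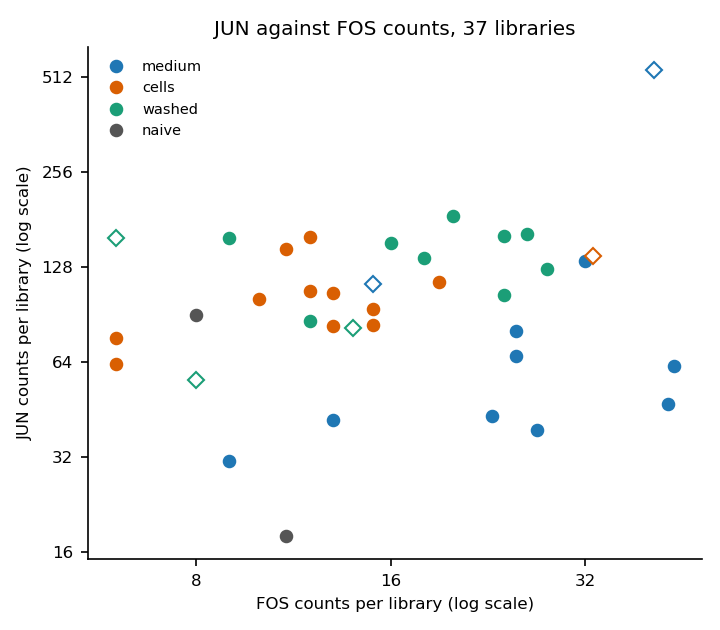
JUN counts (vertical) against FOS counts (horizontal) in 37 libraries, both axes on a log scale, coloured by mode, with the 6 libraries set apart as open diamonds. Most medium libraries lie to the lower right, with a median of 3.20 JUN counts per FOS count, against 8.54 in cells and 7.08 in washed.

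The IDs outside the family most like FOS over the 37 libraries were ENSG00000010244.19 (Pearson's r = 0.66 of log2 CPM) and ENSG00000152620.13 (r = 0.65). For the first of them medium averaged 356 ± 68.4 CPM (SD, n = 11), cells 217 ± 123 (SD, n = 12) and washed 303 ± 47.7 (SD, n = 12). Those most like JUNB were ENSG00000166224.17 (r = 0.66), which averaged 175 ± 25.0 CPM over 11 medium libraries and 274 ± 76.9 over 12 cells libraries (SD), and ENSG00000255807.1 (r = 0.64).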

How the data were processed

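QuantSeq 3′ libraries, which read the 3′ ends of polyadenylated RNA, were made from 37 splenocyte cultures. The authors deposited raw counts. Per the labels, these came from featureCounts (Rsubread 2.0.3), run on alignments that STAR 2.7.10b had made to GRCh38 after trimming by bbduk. The use of molecular identifiers in counting was not given in the sources used here, and the RNA integrity range in the labels extends under the minimum they set.

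Groups came from the treatment labels. Counts were analysed in R 4.3.3 with edgeR 4.0.16: filterByExpr by group (minimum count 10), TMM scaling, 1 mean per group over all 37 libraries, quasi-likelihood F tests and Benjamini-Hochberg adjustment over 5193 IDs, with an adjusted p under 0.05 called. Contrasts weighted groups equally, and SEs came from the F statistic. CPM used TMM-scaled library sizes, and log2 CPM a prior count of 2. Pooled rates and their ratios carry exact 95% Poisson or binomial intervals, which cover counting error and not the spread between libraries. Alternatives were no filter beyond a count in any library, RLE scaling, DESeq2 1.42.0, the replicate number as a block, only the groups compared, the libraries set apart left out, and each library left out. The fits of FOSL1 and FOSB without libraries were added after seeing the data. Permutation tests over libraries (8 in all, unadjusted, 100000 resamples, two-sided) were run for the 4 members under the filter. The code was tested on simulated counts.

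All 9 members were named, with the 2 IDs most correlated with FOS and with JUNB. Members and lists were chosen with earlier results of these data known, and so was which libraries to set apart. Names came from the member list. Lists of related genes and cell type markers were not run, because 0 of the IDs occur in the mouse gene tables used here. In none of 35 replicate pairs did counts agree within sampling noise (chi-square per degree of freedom 2.78 to 42.9).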

Additional observations from a re-analysis of the deposited data

How the results depend on the processing

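In the analysis of every ID with a count, 1 member was called in medium against naive (FOSL1), where 7.45% of IDs were. In cells against medium 4 of 9 were called, where 10.7% of IDs were. In washed against medium 3 of 9 were (JUN, FOSL1 and FOSB), where 14.2% of IDs were, and JUND missed (edgeR adjusted p = 0.0678). In these last 2 comparisons 41.8% and 41.7% of IDs could not be tested and counted as not called, which lowers the shares over all IDs. With only the groups compared, 1 member was called in washed against medium, 1 in washed against cells, 1 in washed against cells after normoxia (JUN in each) and 0 for SPP1 in medium. Without the 2 medium libraries set apart, 1 library remained in medium normoxia no-SPP1. Without the 4 libraries set apart, 1 remained in washed normoxia SPP1. Calls under these 2 settings are not counted here. For the fits with only the groups compared or with a library left out, the share of all IDs called is not given. Their counts of members therefore cannot be set against such a share. With each library left out in turn, the number of members called ran from 0 to 1 in medium, cells and washed against naive, for SPP1 and hypoxia in medium and for the SPP1 effect in cells minus medium, from 1 to 3 in cells against medium, from 1 to 2 in washed against medium and from 0 to 2 in washed against cells. The differences that changed sign were not called in the main analysis or where their sign changed. JUN in medium against naive was -0.0535 without the 2 medium libraries and ran from -0.27 (without naive replicate 2) to 1.63 (without naive replicate 1, edgeR adjusted p = 0.0403) with single libraries left out. JUND was -0.0759 there without the 2 medium libraries, and 0.0556 in washed against cells without the 4 libraries. FOS in cells against naive was -0.10 without the 4 libraries and ran from -0.24 (without naive replicate 1) to 0.632 (without naive replicate 2). The cause was not tested. FOSL1 and FOSB kept their calls without the libraries set apart; for FOSB the test could not be computed without cells normoxia SPP1 replicate 2 in cells against medium or without washed hypoxia SPP1 replicate 2 in washed against medium, and the other 22 fits of each comparison kept the call, with edgeR adjusted p-values up to 0.0221 and 0.0473. Deviations from group means were correlated between libraries of different groups. Of 210 same-number pairs 36 had r over 0.1 (median 0.007, range -0.48 to 0.53). The median of 421 other-number pairs was -0.001, and their count over 0.1 was not made. Of the 37 libraries, 17 were closest on average to their own number. Whether libraries of 1 number shared deviations was not tested. With the replicate block, JUN fell by 1.52 with SPP1 in medium (edgeR adjusted p = 0.014), and the block changed no call of a member. At these depths the 4 members under the filter have counting error too wide for comparisons of oxygen or SPP1.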
